A study of Mus musculus with 7 samples.

Results

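The genes of the integrated stress response, a set of endoplasmic reticulum (ER) stress genes and the aminoacyl-tRNA synthetases were followed in G1E cells, a mouse erythroid line, with and without the long non-coding RNA gene Lockd. The set was chosen by name. It holds the synthetase genes, found by the form of their symbols, and 26 named stress genes, each required to have an array row annotated with exactly 1 symbol. In all 59 of the 22180 genes on the array met this, 34 synthetase genes and 25 stress genes. A gene with several rows (probesets) was read from the brightest, which concerned Nars2 alone. Pycr1 and Aars were not analysed here.

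All 7 arrays came from the G1E line, known as a line with a disrupted Gata1 gene that grows as immature erythroid precursors. The Gata1 probeset read 9.10 to 9.41 over all 7 arrays, and whether its probes lie in the disrupted part is not known here, so it does not check the disruption. The control group had the genotype Lockd WT (3 arrays) and the other group Lockd deletion (4 arrays), made with CRISPR/Cas9. The same treatment note, on CRISPR/Cas9, stands on the control arrays too, and the handling of control cells is not stated there. The samples are called clones, and how many clones there were is not given either. Nothing says that replicates came from separate cultures, so p-values here reflect the sample-to-sample spread alone, and that may be technical. Each value is a log2 expression value from RMA, in which a step of 1 is a doubling. Values of different probesets are not strictly comparable, so differences are always within a gene, and a gene's place among all genes (the median gene, or deciles of the mean level) serves only as a rough guide.

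The integrated stress response joins several alarms to a common output. The kinases HRI (Eif2ak1), PERK (Eif2ak3) and GCN2 (Eif2ak4) phosphorylate the translation factor eIF2 upon heme shortage, ER stress and amino acid shortage, which slows protein synthesis while the mRNA of the transcription factor ATF4 is translated more. ATF4 then raises genes of amino acid supply, among them many cytosolic tRNA synthetases. The ER has further sensors, IRE1 (Ern1), which splices the Xbp1 mRNA, and ATF6. In erythroid cells HRI ties globin synthesis to heme. Much of this control acts on translation, splicing or phosphorylation, which these arrays do not measure.

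What the members share in sequence was read from RefSeq promoters of the build GRCm38.p6, 250 bases before to 50 after each start site, which were at hand for 49 of the 59 genes. The motif searched first was TGATGNAA on both strands, the core of the C/EBP-ATF response element (CARE) that ATF4 binds. It was found in 9 of the 49 genes (18.4%), against 4.51% of all 27025 genes with promoters of this length. The matches lay in 4 of 7 cytosolic synthetase genes known as ATF4 targets, in 3 of 11 other ATF4 target genes, in Atf3 and in Herpud1. The set holds many genes listed as ATF4 targets. A share above that of all genes thus follows in part from this choice. None was found in the 14 mitochondrial synthetase genes, the 4 other cytosolic synthetase genes or the 4 kinase genes read. The ER stress element, CCAAT and CCACG joined by any letters to 19 in all and searched on both strands, was found in Hspa5 alone, against 0.137% of all genes, and the XBP1 motif TGACGTGG in 0 of 49 genes, against 0.714%. A match is a description of letters, and its absence says only that these letters are not in the window.

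The matching stretches are shown because, among synthetase genes read, they were found in ATF4-linked ones and in none of the others. This contrast was not tested. With a match in only 4.51% of all genes, lists of 4 and 14 genes can easily hold none. Each is written on the strand of its gene, with the match in capitals. Those of Iars, Trib3 and Yars lie just after the start site, and the others before it. The last line, of Hspa5, shows the ER stress element.
Gars, chr6:55037945-55038000, plus strand: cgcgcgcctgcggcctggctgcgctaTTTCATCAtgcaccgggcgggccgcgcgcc
Tars, chr15:11399659-11399699, minus strand: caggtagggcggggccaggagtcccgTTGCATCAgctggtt
Iars, chr13:49682126-49682155, plus strand: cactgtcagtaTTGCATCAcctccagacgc
Yars, chr4:129189895-129189924, plus strand: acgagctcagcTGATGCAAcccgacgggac
Asns, chr6:7693210-7693258, minus strand: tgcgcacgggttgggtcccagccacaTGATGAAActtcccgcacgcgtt
Chac1, chr2:119351023-119351082, plus strand: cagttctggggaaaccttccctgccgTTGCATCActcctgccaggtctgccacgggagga
Trib3, chr2:152344028-152344057, minus strand: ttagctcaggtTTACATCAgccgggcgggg
Atf3, chr1:191183410-191183469, minus strand: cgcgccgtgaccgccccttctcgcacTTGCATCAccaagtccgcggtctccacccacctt
Herpud1, chr8:94386291-94386350, plus strand: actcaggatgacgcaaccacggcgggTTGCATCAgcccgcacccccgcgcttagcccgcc
Hspa5, chr2:34771999-34772069, plus strand: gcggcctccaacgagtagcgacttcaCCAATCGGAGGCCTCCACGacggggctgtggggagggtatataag

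Lockd read 7.80 to 8.04 on the control and 4.17 to 5.15 on the deletion arrays, which fits the labels. All 10 erythroid and progenitor markers examined, such as Gfi1b, Klf1 and Kit, lay above the median gene of the array. So did 2 of 9 mast cell markers (Cpa3 and Ms4a2), 2 of 6 megakaryocyte, 0 of 7 myeloid and 0 of 6 lymphoid markers. RMA gives no detection call, so a low value is not absence. Control replicate 2 lay farthest from the other arrays in a principal component analysis, on the leading axis (29.9% of the variance).

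None of the 59 genes differed between deletion and control cells past the threshold. By limma (Benjamini-Hochberg adjustment, 23521 probesets tested), 0 members passed an adjusted p of 0.05, where 2 probesets, or 0.0085%, passed in all. The number at an unadjusted p under 0.05 was 0 of 59 as well, where 4.64% of all probesets had such a p, 2.37% lower and 2.27% higher. The differences, deletion minus control, ran from -0.18 for Ern1 to 0.16 for Trib3. Their 95% intervals all lay between -0.43 and 0.49, that is from -25.9% to 40.3% as a change in level. For 41 of the 59 genes the interval lay within 0.25 of 0, or -15.9% to 18.9% as a change in level. A miss of the threshold does not show equal levels, but these intervals bound the size of a difference at these probesets.

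**Figure D1:**
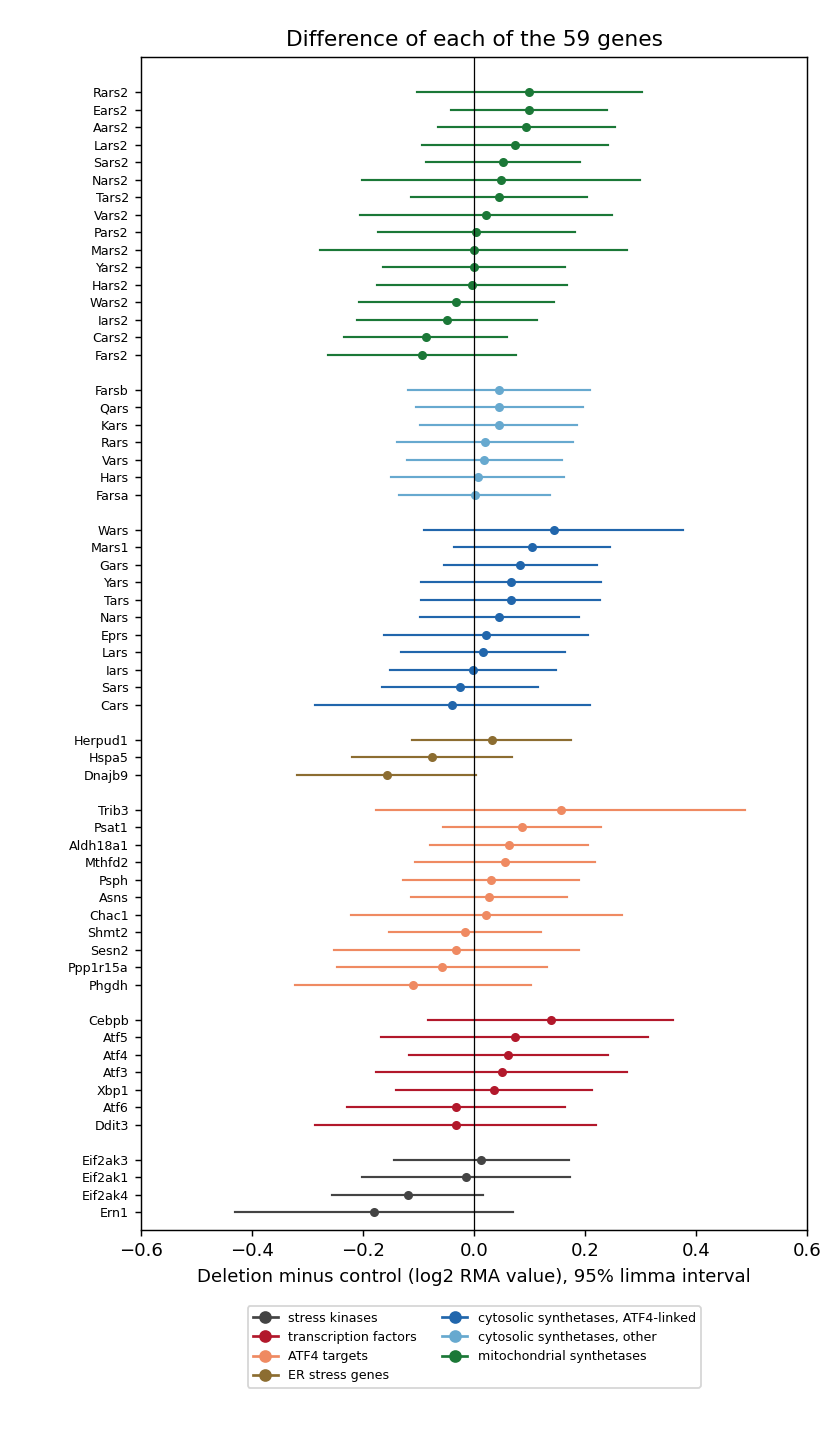
Difference of each of the 59 genes between deletion and control arrays on the log2 scale (points), with its 95% limma interval (lines), grouped by role. Every interval spans 0, and all lie between -0.43 and 0.49.

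By sign, 38 members were higher and 21 lower in deletion cells, with a median of 0.02, beside 47.8% of all probesets lower and a median of 0.01 over all genes. The arrays were also centred on their medians, taken over the tested probesets. The split was then 28 higher and 31 lower, beside 9344 higher and 12836 lower over all genes. After quantile normalization it was 40 and 19, beside 11451 and 10729 over all genes. Centring within deciles of the mean level, chosen after seeing the data, also gave 40 and 19, beside 11184 and 10996. Without control replicate 3 the split was 28 and 31, beside 11674 and 10506 over all genes. Without control replicate 2 it was 46 and 13, and with the replicate number as a block 43 and 16, so that the split moved either way. Number 4 occurs only among deletion arrays. The block thus takes deletion replicate 4 out of the difference, and leaving that array out gave the same 43 and 16. The groups did not overlap for 4 members, or 6.78%, where 5.15% of all probesets did not. These were Eif2ak4, lower, where 2.5% of all probesets lay apart and lower, and Mars1, Gars and Ears2, higher, where 2.65% did.

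Among the kinase genes, only Eif2ak4, which encodes GCN2, had groups that did not overlap, and its difference did not pass the test. Eif2ak4, the sensor of uncharged tRNA, read 7.99, 8.02 and 8.02 on control replicates 1 to 3 and 7.86, 7.94, 7.89 and 7.87 on deletion replicates 1 to 4. All deletion arrays lay below all control arrays. Controls averaged 8.01 ± 0.02 (SD, n = 3), deletion cells averaged 7.89 ± 0.04 (SD, n = 4), and the difference was -0.12 (SE 0.06, limma adjusted p 0.999). The spread of Eif2ak4 within groups, an SD of 0.03, was in the lowest 0.9% of genes in its decile of the level scale, and limma's moderated error is larger than it. Leaving out each array gave -0.14 to -0.11.

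Ern1, the IRE1 gene, had the lowest difference of the set. It read 8.86, 8.97 and 8.70 in control and 8.61, 8.83, 8.77 and 8.45 in deletion cells, so that the groups overlapped. The difference was -0.18 (SE 0.11). It was -0.25 without control replicate 3 and -0.11 without deletion replicate 4. Eif2ak1, the heme-regulated kinase HRI, read 10.34, 10.48 and 10.26 in control and 10.36, 10.26, 10.47 and 10.29 in deletion cells. The ranges of Eif2ak1 nearly coincided, with a difference of -0.02 (95% interval -0.20 to 0.17). Eif2ak3, the PERK gene, differed by 0.01 (95% interval -0.15 to 0.17).

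The transcription factors had a median difference of 0.05, with 5 of 7 higher, which turned to -0.01 with 3 of 7 higher without control replicate 3. Atf4, the common effector, read 10.65, 10.56 and 10.46 in control and 10.60, 10.52, 10.74 and 10.61 in deletion cells. The groups overlapped, with controls averaging 10.56 ± 0.10 (SD, n = 3), deletion cells averaging 10.62 ± 0.09 (SD, n = 4) and a difference of 0.06 (SE 0.08, 95% interval -0.12 to 0.24). Ddit3, which encodes the pro-apoptotic factor CHOP, read 8.50, 8.65 and 8.29 in control and 8.23, 8.48, 8.55 and 8.52 in deletion cells, a difference of -0.03 (SE 0.11). The highest value of Ddit3 came from a control array and the lowest from a deletion array.

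Cebpb, a bZIP factor that pairs with ATF4, read 7.75, 7.96 and 7.55 in control and 7.84, 7.92, 7.94 and 7.87 in deletion cells. The deletion arrays lay close together inside the control range, and the difference was 0.14 (SE 0.10). It depended on the control arrays, at 0.24 without replicate 2 and 0.04 without replicate 3. Atf5, a relative of Atf4, read 9.29, 9.63 and 9.34 in control and 9.63, 9.54, 9.47 and 9.33 in deletion cells (difference 0.07, SE 0.11). Xbp1, the transcript that IRE1 splices, read 10.28, 10.24 and 10.11 in control and 10.18, 10.38, 10.22 and 10.20 in deletion cells. Its total level differed by 0.04 (SE 0.08), and the spliced form was not measured apart. The stress-induced Atf3 differed by 0.05 (SE 0.10) and the ER sensor gene Atf6 by -0.03 (SE 0.09).

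The ATF4 target genes had a median difference of 0.03, with 7 of 11 higher, which turned to -0.03 with 4 of 11 higher without control replicate 3. Asns, asparagine synthetase and a classic target, read 12.30, 12.38 and 12.27 in control and 12.32, 12.38, 12.34 and 12.34 in deletion cells, a difference of 0.03 (95% interval -0.11 to 0.17). Trib3, a pseudokinase that restrains ATF4 and CHOP, varied most. It read 9.22, 9.16 and 8.64 in control and 9.04, 9.29, 9.28 and 9.04 in deletion cells. Control replicate 3 was the low array, and the difference of 0.16 (SE 0.15) became -0.03 without it. The spread of Trib3 within groups was above that of 97.7% of the genes in its level decile.

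Chac1, which degrades glutathione, showed the same low array. It read 7.57, 7.48 and 7.18 in control and 7.37, 7.54, 7.51 and 7.32 in deletion cells, a difference of 0.02 (SE 0.11) that became -0.09 without control replicate 3. Sesn2, a stress gene that restrains mTORC1, was low on deletion replicate 1, at 10.42 against 10.54 to 10.81 on the other deletion arrays, and differed by -0.03 (SE 0.10). Ppp1r15a, the GADD34 subunit that reverses eIF2 phosphorylation, differed by -0.06 (SE 0.08).

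Serine and folate enzymes of the ATF4 programme differed little. Psat1, of serine synthesis, read 11.53, 11.59 and 11.46 in control and 11.63, 11.62, 11.58 and 11.61 in deletion cells, and the groups overlapped by a single array. Its difference was 0.09 (SE 0.06), and 0.05 to 0.12 with each array left out. Psph, the last step of serine synthesis, differed by 0.03 (SE 0.07), and the mitochondrial folate enzyme genes Mthfd2 and Shmt2 by 0.06 (SE 0.07) and -0.02 (SE 0.06). Aldh18a1, of proline synthesis, differed by 0.06 (SE 0.06).

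Phgdh, the first enzyme of serine synthesis, was the only member below the median gene of the array. It read 4.86, 5.14 and 5.11 in control and 4.83, 4.93, 4.88 and 5.07 in deletion cells, a difference of -0.11 (SE 0.09). Whether this level lies above background was not measured. Its interval, -0.32 to 0.10, therefore does not bound a change in Phgdh mRNA.

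Of the ER stress genes, Dnajb9 had the smallest p of all 59 members, at an unadjusted limma p of 0.0541. Dnajb9 encodes ERdj4, a co-chaperone of BiP induced through XBP1. It read 8.29, 8.36 and 8.33 in control and 8.12, 8.14, 8.30 and 8.13 in deletion cells. Deletion replicate 3 lay within the control range and the other deletion arrays below it. The difference was -0.16 (SE 0.07, 95% interval -0.32 to 0.004, adjusted p 0.999), and -0.20 without deletion replicate 3.

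Hspa5, which encodes BiP and carries the ER stress element shown above, read 9.72, 9.70 and 9.73 in control and 9.71, 9.66, 9.63 and 9.56 in deletion cells. A single deletion array reached into the control range, and the difference was -0.08 (SE 0.06). Herpud1, of ER-associated degradation, read 10.47, 10.49 and 10.39 in control and 10.42, 10.52, 10.51 and 10.48 in deletion cells, a difference of 0.03 (SE 0.06). In a wider list of 24 ER stress genes outside the set, 17 were lower and 7 higher with a median of -0.03, and 0 passed. At an unadjusted p under 0.05 there was 1 of 24, beside the 4.64% of all probesets. It was the oxidoreductase gene Ero1a, at -0.23 (SE 0.10, adjusted p 0.999). The groups did not overlap for 3 of the 24, where 5.15% of all probesets did not. These were Ero1a and Syvn1 (-0.14, SE 0.06), lower, and Derl1 (0.13, SE 0.07), higher. Of all probesets 2.5% lay apart and lower and 2.65% apart and higher.

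**Figure D2:**
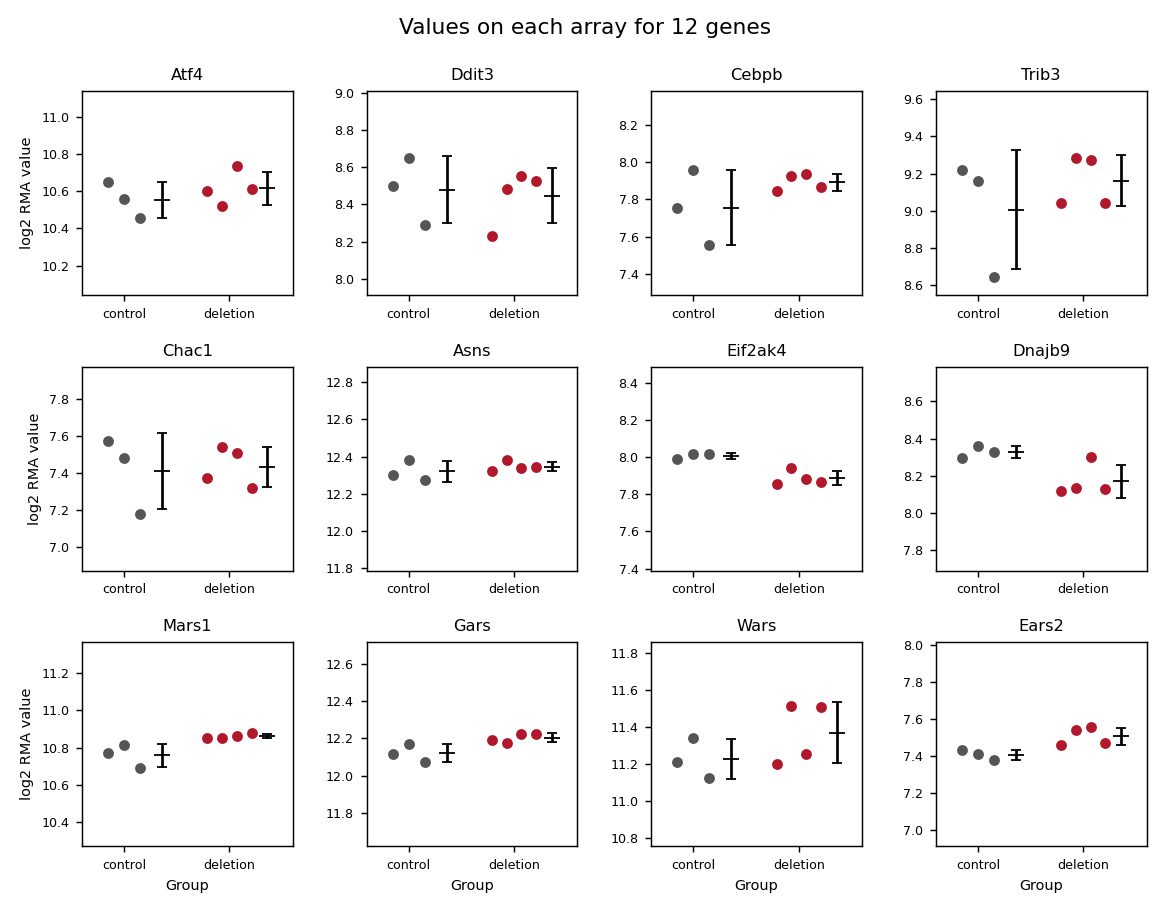
log2 RMA values of 12 members on each array (grey, control replicates 1 to 3; red, deletion replicates 1 to 4, from left to right), with the group mean and SD (black, n = 3 and n = 4). All panels span the same range on the log2 scale. The groups separate for Eif2ak4, Mars1, Gars and Ears2 and overlap for the others.

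The cytosolic synthetases charge tRNAs for translation in the cytosol and are encoded apart from most of the mitochondrial enzymes. For description they were divided into those widely known as ATF4 targets (Cars, Eprs, Gars, Iars, Lars, Mars1, Nars, Sars, Tars, Wars and Yars) and the rest (Farsa, Farsb, Hars, Kars, Qars, Rars and Vars). The products of Gars and Kars serve mitochondria as well. The ATF4-linked genes had a median difference of 0.05 with 8 of 11 higher, and the other cytosolic genes one of 0.02 with 7 of 7 higher. All 7 of these last lay between 0.001 and 0.05, and with arrays centred on their medians 3 of 7 were higher and the median was -0.004. That centring brought the median over all genes to -0.02. After quantile normalization 7 of 7 of these other cytosolic genes were higher, with a median of 0.01. Centring within level deciles gave 6 of 7, also with 0.01.

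Mars1, the methionyl-tRNA synthetase, read 10.771, 10.814 and 10.691 in control and 10.853, 10.852, 10.864 and 10.880 in deletion cells. All deletion arrays lay above all control arrays. Controls averaged 10.76 ± 0.06 (SD, n = 3), deletion cells averaged 10.86 ± 0.01 (SD, n = 4), and the difference was 0.10 (SE 0.06, adjusted p 0.999), with 0.07 to 0.13 when each array was left out. Gars, the glycyl-tRNA synthetase, read 12.118, 12.171 and 12.074 in control and 12.194, 12.175, 12.223 and 12.225 in deletion cells. The groups of Gars were apart by the narrow step from 12.171 to 12.175, with a difference of 0.08 (SE 0.06).

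Wars, the tryptophanyl-tRNA synthetase, had the highest difference among synthetases, and its deletion arrays formed a high and a low pair. It read 11.21, 11.34 and 11.13 in control and 11.20, 11.51, 11.25 and 11.51 in deletion cells, a difference of 0.14 (SE 0.10). Its spread within groups was above that of 95.7% of genes of its level decile. Cars, the cysteinyl-tRNA synthetase, had the lowest difference of the cytosolic genes. It read 9.47, 9.84 and 9.64 in control and 9.69, 9.71, 9.64 and 9.41 in deletion cells, at -0.04 (SE 0.11).

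Of the other ATF4-linked synthetases, Yars and Tars each differed by 0.07 (SE 0.07), Nars by 0.05 (SE 0.06), Eprs by 0.02 (SE 0.08) and Lars by 0.02 (SE 0.06). Iars differed by -0.002 (SE 0.07) and Sars by -0.03 (SE 0.06). The 4 genes with a CARE match in their promoter window, Gars, Tars, Yars and Iars, thus spanned -0.002 to 0.08.

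Among the cytosolic genes outside the ATF4-linked list, Kars, the lysyl-tRNA synthetase, read 11.57, 11.70 and 11.65 in control and 11.68, 11.70, 11.69 and 11.67 in deletion cells (difference 0.04, SE 0.06). Qars, the glutaminyl-tRNA synthetase, read 11.12, 11.26 and 11.22 in control and 11.23, 11.29, 11.27 and 11.18 in deletion cells (difference 0.04, SE 0.07). In both genes control replicate 1 was lowest and the remaining values overlapped. Farsb, the beta chain of phenylalanyl-tRNA synthetase, read 10.74, 10.84 and 10.72 in control and 10.84, 10.76, 10.91 and 10.73 in deletion cells (difference 0.05, SE 0.07). The ranges of Farsb overlapped, with deletion replicate 3 highest. Farsa, the alpha chain of that enzyme, read 9.65, 9.70 and 9.66 in control and 9.63, 9.68, 9.71 and 9.65 in deletion cells, a difference of 0.001 (95% interval -0.14 to 0.14). Hars, Vars and Rars differed by 0.01, 0.02 and 0.02.

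Several of these enzymes sit in the multisynthetase complex of animal cells. Its measured enzymes Eprs, Iars, Lars, Mars1, Qars, Rars and Kars had a median difference of 0.02, with 6 of 7 higher. The scaffold genes Aimp1 and Eef1e1 differed by -0.01 (SE 0.07) and 0.02 (SE 0.06). In the list of 9 synthetase partner genes, which also holds editing, amidation and selenocysteine enzymes, 0 passed and 0 had an unadjusted p under 0.05. The smallest p there was that of Mtfmt, which formylates the mitochondrial initiator tRNA, at -0.06 (SE 0.06).

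The mitochondrial synthetases had a median difference of 0.01 with 9 of 16 higher. With arrays centred on their medians it was -0.01 with 7 of 16 higher, beside a median of -0.02 over all genes. Quantile normalization and centring within level deciles each gave 0.02 with 12 of 16 higher. Ears2, the mitochondrial glutamyl-tRNA synthetase, read 7.43, 7.41 and 7.38 in control and 7.46, 7.54, 7.56 and 7.47 in deletion cells. All deletion arrays lay above the controls, and the difference was 0.10 (SE 0.06, 95% interval -0.04 to 0.24). Its spread within groups was in the lowest 1.1% of its level decile. Leaving out each array gave 0.08 to 0.11.

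Aars2, the alanyl-tRNA synthetase of mitochondria, read 8.23, 8.31 and 8.14 in control and 8.32, 8.40, 8.28 and 8.28 in deletion cells (difference 0.09, SE 0.07). Cars2, the cysteinyl counterpart, read 9.05, 9.20 and 9.12 in control and 9.01, 9.08, 9.03 and 9.03 in deletion cells (difference -0.09, SE 0.06). The groups overlapped in both, with control replicate 3 low for Aars2 and replicate 1 low for Cars2. The extremes were the arginyl- and phenylalanyl-tRNA synthetases. Rars2 read 9.26, 9.55 and 9.43 in control and 9.42, 9.62, 9.56 and 9.46 in deletion cells, at 0.10 (SE 0.09). Fars2 read 9.06, 8.91 and 9.16 in control and 8.98, 8.96, 8.94 and 8.92 in deletion cells, at -0.09 (SE 0.07). Both overlapped, with the spread of Fars2 lying on the control side. Fars2 differed by -0.16 without control replicate 2 and by -0.04 without control replicate 3. The remaining mitochondrial genes lay between -0.05 (Iars2) and 0.07 (Lars2).

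By sign, cytosolic synthetases were higher in deletion cells for 15 of 18 genes (83.3%) and mitochondrial ones for 9 of 16 (56.2%). The medians were 0.03 and 0.01. The cytosolic count was 9 of 18 with arrays centred on their medians and 10 of 18 without control replicate 3, and the mitochondrial count was 7 and 9 of 16 in turn. Over all 22180 genes, 9344 were higher with that centring and 11674 without control replicate 3. After quantile normalization the cytosolic and mitochondrial counts were 15 of 18 and 12 of 16. Centring within level deciles gave 14 of 18 and 12 of 16. Over all genes 11451 and 11184 were higher under these 2 scalings in turn. Without control replicate 2 the counts were 17 of 18 and 12 of 16, with medians of 0.07 and 0.06. With the replicate block, as without deletion replicate 4, they were 17 of 18 and 11 of 16. In the top level decile of all genes, where most cytosolic synthetases lay, 55.7% were higher. The difference between the compartments was not tested. Genes of a list partly moved together from array to array, as described below, so they do not count as independent observations.

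The list of 22 further stress response genes had 14 higher and 8 lower with a median of 0.01. With arrays centred on their medians this list had 10 and 12 with -0.01, beside a median of -0.02 over all genes. Quantile normalization gave 15 higher and 7 lower, and centring within level deciles 14 and 8, each with a median of 0.02. None passed, and 1 of 22 had an unadjusted p under 0.05, beside the 4.64% of all probesets. This was Ddit4, which restrains mTORC1, at -0.33 (SE 0.14, adjusted p 0.999), with 9.57, 9.52 and 9.05 in control and 8.82, 9.24, 9.06 and 9.07 in deletion cells. Control replicate 3 lay within the deletion range. The eIF2 and eIF2B genes Eif2s2, Eif2b1, Eif2b2, Eif2b3, Eif2b4 and Eif2b5 differed by between -0.01 and 0.07. Of 9 amino acid transporter genes linked to ATF4, 7 were higher and 0 passed. Their smallest p was that of Slc7a1, a cationic amino acid transporter, at 0.10 (SE 0.07).

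Within each group, members of several lists moved up and down together from array to array, and those of other lists did less so. Covariation was measured on each array's deviation from its group mean as the mean correlation over all pairs of genes in a list. It is a description over 7 arrays that share their normalization, with no test. It was 0.59 for ATF4-linked cytosolic synthetases, 0.49 for other cytosolic ones, 0.41 for transcription factors, 0.41 for kinases, 0.30 for ATF4 targets, 0.21 for mitochondrial synthetases and -0.065 for the 3 ER stress genes Hspa5, Herpud1 and Dnajb9. With Ern1, Xbp1 and Atf6 added to these, the 6 genes came to 0.30. Outside the set it was 0.27 for the amino acid transporters, 0.06 for the synthetase partners, 0.04 for the wider ER stress list and 0.02 for the further stress response genes. Over all genes it was 0.00, and within deciles of the level scale it ran from 0.01 to 0.11.

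The common pattern was a high control replicate 2 and a low control replicate 3. Control replicate 2 was the highest control array for 18 of 18 cytosolic synthetases, 11 of 16 mitochondrial ones and 8 of 11 ATF4 targets. Control replicate 3 was the lowest for 10 of 11 ATF4-linked synthetases (all but Cars), 6 of 7 transcription factors, 8 of 11 ATF4 targets and 8 of 16 mitochondrial synthetases, but 2 of 7 other cytosolic synthetases. Over all genes these shares were 35.7% and 32.2%. In the 8th, 9th and 10th level deciles, where most members lay, control replicate 2 was the highest control array for 55.5%, 53.1% and 45.5% of genes, and replicate 3 the lowest for 41.1%, 40.2% and 37.0%. The counts of the mitochondrial synthetases lay nearer to these shares than those of the ATF4-linked ones. On the deletion side replicate 1 was lowest for 30 of 59 members, among them 11 of 16 mitochondrial synthetases, where 25.4% of all genes were lowest on it. The level of a gene mattered here too. Genes of the 8th, 9th and 10th deciles averaged -0.03, -0.01 and 0.001 from their group mean on that array, and mitochondrial synthetases -0.05.

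**Figure D3:**
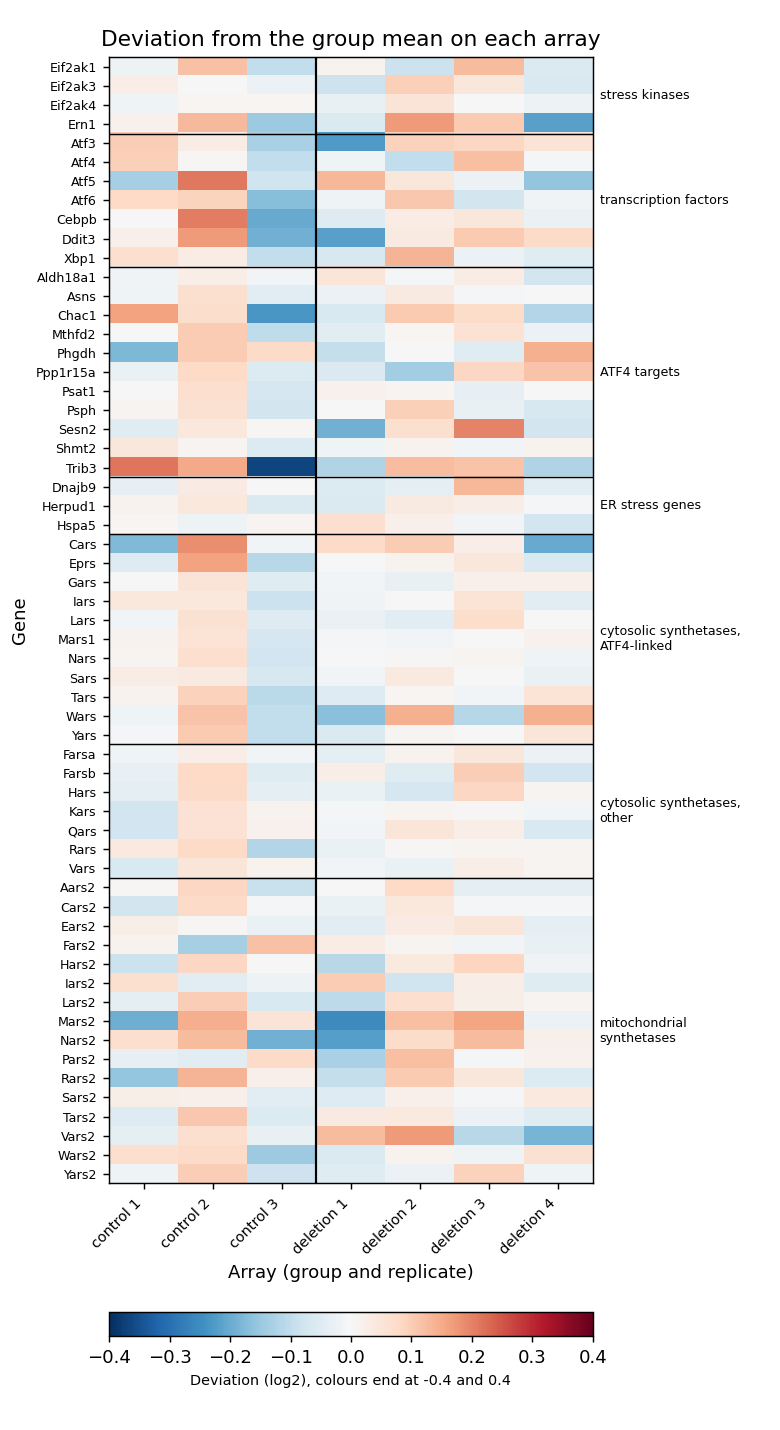
Deviation of each member from its group mean on each array (log2, blue below and red above the mean), with control arrays left of the vertical line and genes grouped by role. The second control column is red for all 18 cytosolic synthetases, and the third is blue for all 11 ATF4-linked ones, if barely for Cars (-0.01).

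In mean deviation, transcription factors stood at 0.11 on control replicate 2 and -0.14 on replicate 3, ATF4 targets at 0.07 and -0.08, and ATF4-linked synthetases at 0.09 and -0.07. Mitochondrial synthetases stood at 0.06 and -0.03. The level of a gene moved with this. Genes of the upper 3 deciles of the level scale averaged 0.01 to 0.04 on control replicate 2 and -0.02 to -0.003 on replicate 3, while those of the 5th decile averaged -0.08 and 0.05. The summed log2 level of 9 mast cell markers was 45.7 on control replicate 2, 51.1 and 50.3 on the other control arrays and 46.4 to 49.7 on the deletion arrays. The low sum came mainly from Cpa3 (9.53, against 11.97 and 11.95 on control replicates 1 and 3) and Ms4a2 (7.55, against 9.67 and 9.99). Among control arrays, replicate 2 was lowest for 4 of the 9 markers and highest for 2. The part of these markers in the covariation was not tested.

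**Figure D4:**
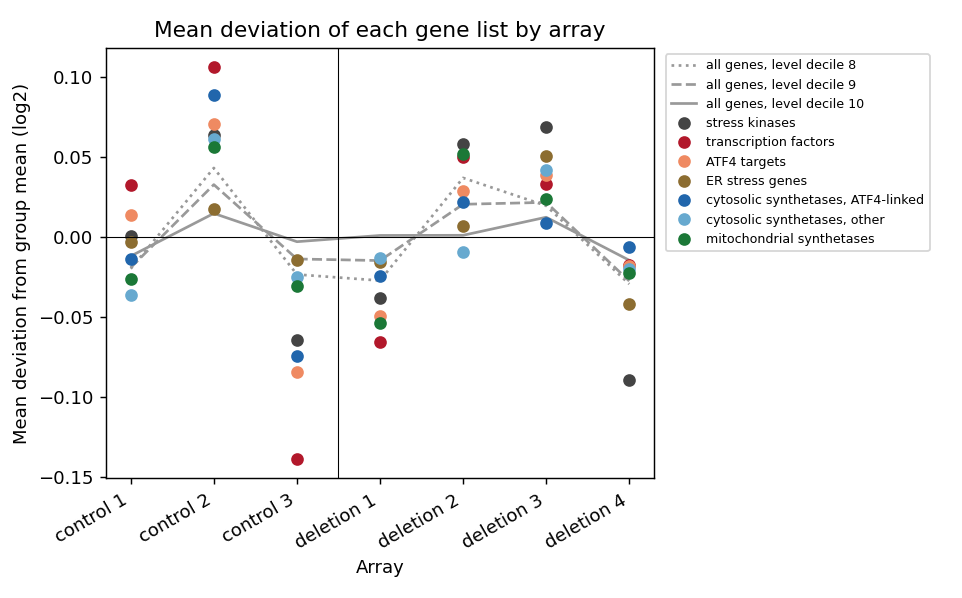
Mean deviation from the group mean (log2) of each list of members on each array (coloured points), with the mean over all genes of the level deciles 8, 9 and 10 (grey lines). On control replicate 3 the transcription factors stand at -0.14 and the ATF4 targets at -0.08, below the grey lines.

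With each array centred within deciles of the level scale, a setting chosen after seeing the data, the ATF4-linked synthetases kept a covariation of 0.51, transcription factors 0.34 and ATF4 targets 0.24. Other cytosolic synthetases came to 0.17, mitochondrial ones to 0.03 and kinases to -0.06. Single arrays carried much of it. Without control replicate 2 the ATF4-linked synthetases came to 0.31, the other cytosolic ones to 0.17 and the ATF4 targets to 0.16. Without control replicate 3 the ATF4-linked synthetases came to 0.34, the transcription factors to 0.10 and the ATF4 targets to 0.13. The other cytosolic synthetases instead rose to 0.63, above the ATF4-linked ones.

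**Figure D5:**
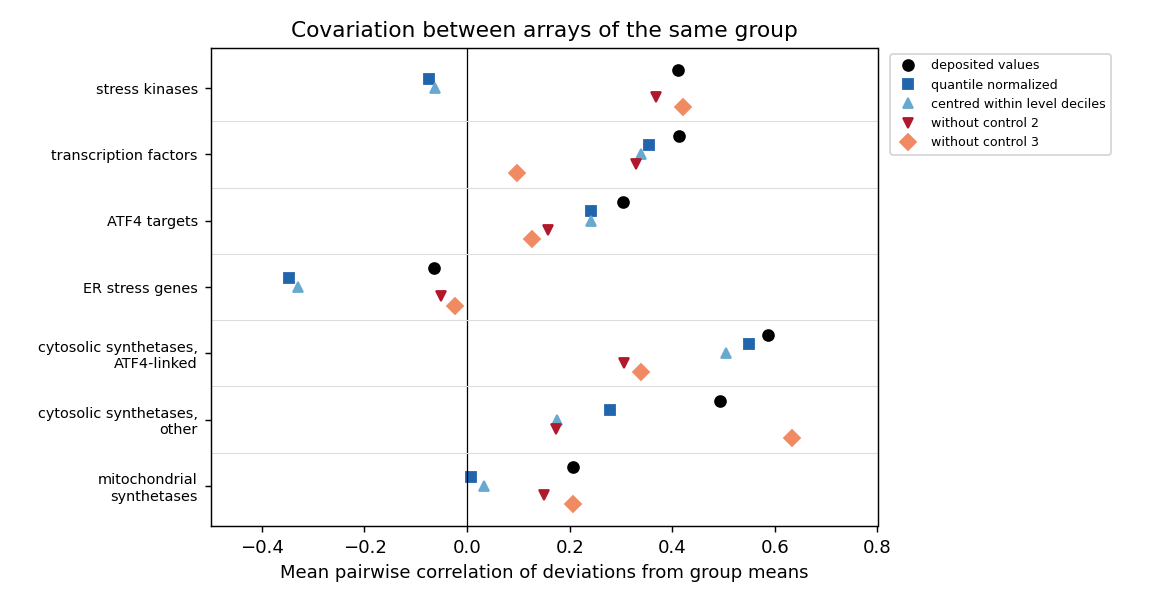
Mean pairwise correlation of deviations from group means in each list, from the deposited values (black circles), after quantile normalization (squares), after centring within level deciles (triangles up) and without control replicate 2 (triangles down) or 3 (diamonds). The ATF4-linked cytosolic synthetases lie at 0.31 or above under all of these settings, and mitochondrial synthetases at 0.21 or below.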

How the data were processed

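Total RNA of 7 samples was hybridised to Affymetrix Mouse Gene 2.0 ST arrays. The deposited values are log2 expression values per probeset, and per the submitters' processing notes the authors used the RMA method of Affymetrix Expression Console. It corrects background, normalizes the arrays to each other and summarises probes. No source used here gives versions or the genome build. Scanner files were not used here.

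Of 41345 probesets, 23521 with exactly 1 annotated symbol were tested, and 1814 with several and 16010 not listed were left out. Deletion (4 arrays) was compared with control (3 arrays) in limma 3.58.1 (R 4.3.3), with Benjamini-Hochberg adjustment over all tested probesets and a threshold of 0.05. Precision is limited by how few arrays there are. The script was tested on simulated data. Members, gene lists and tests were chosen with earlier results of these data known. Values per array are given for 8 preset genes (Atf4, Ddit3, Xbp1, Hspa5, Eif2ak1, Asns, Trib3 and Chac1), for the 3 smallest p in each role list and for the highest and lowest synthetases. Any other gene given per array was chosen after its values were seen. Alternatives were a replicate block, each array left out, all probesets, 2 filters on low values, another variance prior, array weights, 3 scalings and averaged probesets. Of the scalings, centring within deciles of the level scale was chosen after seeing the data.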

Additional observations from a re-analysis of the deposited data

Results flagged for a closer look

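In 2 of the 59 genes a single deletion array stood apart from the other 3 by Dixon's test. Atf3 on deletion replicate 1 read 6.23 (log2), against 6.51 to 6.55 on the other deletion arrays and 6.28 to 6.51 on the control arrays. Dnajb9 on deletion replicate 3 read 8.30, against 8.12 to 8.14 on the other deletion arrays and 8.29 to 8.36 on the control arrays. Chance alone sets about 1 in 20 groups apart in this way. By the same test 1187 of all 22180 genes, or 5.35%, were set apart, so the 2 members do not exceed the background.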

How the results depend on the processing

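No member passed the adjusted threshold under any alternative run. At an unadjusted p under 0.05 there were 4 members with a trended, robust variance prior (Psat1, Dnajb9, Gars and Mars1), 2 under either filter on low values (Eif2ak4 and Dnajb9), 1 with centring within level deciles (Dnajb9), and 0 to 1 with each array left out. The latter were Cebpb without control replicate 2 and Dnajb9 without deletion replicate 3. Over all genes the shares were 4.36% with that prior, 4.42% and 4.48% under the filters and 4.94% with that centring. With each array left out they ran from 3.63% to 7.14%, so these are small counts near the background. Arrays of the same number in the titles correlated at 0.02, 0.06 and -0.10 in their deviations, and pairs of other numbers at -0.17 to 0.17. Such weak values cannot settle whether replicate numbers pair the samples. The deletion arrays are numbered 1 higher in the descriptions, by which the same-numbered arrays correlated at -0.17 and -0.10. With the replicate block, 0 genes passed in all, against 2, and covariation was 0.10 for kinases and -0.36 for ER stress genes. Differences with the block equal those without deletion replicate 4, the only array of that number, so the block is not a separate check of them. The Lockd difference was -3.10 with the block (adjusted p 0.109), -3.015 with all probesets tested (adjusted p 0.0991), and -3.10 to -2.78 with each array left out. Its adjusted p was 0.106, 0.0954 and 0.0941 when control replicates 1, 2 and 3 were dropped in turn, and 0.085 and 0.0694 when deletion replicates 1 and 4 were, and in these 5 fits 0 genes passed in all.

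A shift of covariation by over 0.1, a bound of this work's own choosing, was counted as a move. With arrays centred on their medians, covariation was 0.77 for kinases, 0.65 for transcription factors, 0.65 for ATF4 targets, 0.61 for ER stress genes, 0.82 for ATF4-linked and 0.84 for other cytosolic synthetases, and 0.53 for mitochondrial ones. No value over all genes is given with this centring, so these are not to be read as particular to the lists. The centring shifts whole arrays by their medians over the tested probesets, which were 5.71, 5.60 and 5.73 on control replicates 1 to 3. Over all 41345 probesets the array medians ran only from 5.417 to 5.463. Quantile normalization gave -0.074 for kinases, -0.35 for ER stress genes, 0.28 for other cytosolic and 0.0068 for mitochondrial synthetases. Centring within level deciles, added after seeing the data, gave -0.063, -0.33, 0.17 and 0.034 for the same lists. With each array left out, covariation ran from 0.32 to 0.56 for kinases, 0.10 to 0.52 for transcription factors, 0.13 to 0.38 for ATF4 targets, -0.41 to 0.15 for ER stress genes, 0.31 to 0.69 for ATF4-linked, 0.17 to 0.63 for other cytosolic and 0.15 to 0.27 for mitochondrial synthetases. The median difference of ATF4-linked synthetases then ran from 0.0066 to 0.10. Causes of these shifts were not tested. The sign of the difference was the same with each array left out for 33 of 59 members and changed for 26.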

Other observations

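Some amino acid supply genes outside the set varied far more than its members, and are named here after their values were seen. Cth, which makes cysteine from cystathionine, read 9.06, 9.19 and 4.63 in control and 8.80, 8.12, 5.52 and 7.62 in deletion cells. The low arrays were control replicate 3 and deletion replicate 3, and the groups overlapped (difference -0.11, SE 1.16). Slc7a11, the cystine transporter, read 7.55, 7.65 and 6.34 in control and 7.13, 7.28, 7.68 and 6.98 in deletion cells, so that control replicate 3 was low here too. Gpt2, the mitochondrial alanine transaminase, read 7.91 on control replicate 3 against 8.56 and 8.73 on the others and 8.36 to 8.74 in deletion cells. Slc7a3, a cationic amino acid transporter, read 8.46 on control replicate 2, and 6.04 to 6.67 on the other control and 6.18 to 6.91 on the deletion arrays. The transporter gene Slc43a1 was instead highest on control replicate 3 among control arrays. It read 6.87, 7.04 and 8.39 in control and 7.88, 6.74, 6.27 and 9.33 in deletion cells.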
